A study of Homo sapiens with 8 samples.

Results

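The integrins and the proteins of focal adhesions were followed as 36 genes, taken by gene symbol from the 21059 genes of the table, and all 36 were found. They comprised 20 integrin subunits (12 alpha, 8 beta) and 16 adhesion adaptors, the proteins that tie integrins to actin and to signaling. RNA sequencing had been done on MDA-MB-157, an established human breast cancer line, negative for the estrogen receptor per the labels. Cells were cultured in flasks for 48 hours, without serum per the study's methods, and received glucose at 5 mM (the low glucose group) or at 25 mM (the high glucose group), with 4 libraries per group, and the comparison asked what a diabetes-like glucose level changes. Both groups were the same line in the same time frame, so the comparison describes 1 line in culture, and no library with an added osmotic control was analysed here. The labels do not say whether the 4 replicates of a group were repeated on separate days, so p-values measure only the spread between these libraries. ESR1, the estrogen receptor, was at 0.121 ± 0.0811 CPM (mean ± SD, n = 4) in low and 0.0598 ± 0.0406 in high glucose, below the value of 3 reads. Of 5 epithelial markers, the keratins KRT8 (131 ± 5.95 CPM in low and 88.3 ± 10.3 in high glucose) and KRT18 (234 ± 4.85 and 170.1 ± 18.1) were lower in high glucose and EPCAM (4.5 ± 0.414 and 7.0 ± 0.445) was higher, while CDH1 (E-cadherin, 0.949 ± 0.204 and 0.961 ± 0.454) and KRT19, near 0, did not pass. Of 4 mesenchymal markers, VIM (4091 ± 28.5 CPM in low and 2967 ± 210.3 in high glucose), SPARC (21705 ± 278 and 12226 ± 406) and FN1 were lower and CDH2 (55.2 ± 2.29 and 75.5 ± 1.8) was higher. SPARC did not pass after quantile normalization. That setting gives equal values to equal ranks and left SPARC no change at all, so it cannot show a fall of this gene. The summed level of the epithelial markers was 360 to 376 CPM in low and 240.3 to 306 CPM in high glucose, and that of the mesenchymal markers 29130 to 29825 and 17605 to 18194 CPM. The part of these shifts in the changes of the members was not tested.

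An integrin is a pair of 1 alpha and 1 beta subunit that spans the membrane, binds the extracellular matrix outside the cell and talin and kindlin inside it. The pair sets the ligand. The collagen-binding integrins use ITGA1, ITGA2, ITGA10 or ITGA11 with ITGB1, the laminin-binding integrins use ITGA3, ITGA6 or ITGA7 with ITGB1 or ITGA6 with ITGB4, and the integrins that read the tripeptide arginine-glycine-aspartate (RGD) of fibronectin, vitronectin and latent TGF-beta are built from ITGA5, ITGA8 or ITGAV with ITGB1, ITGB3, ITGB5, ITGB6 or ITGB8. ITGB1 is thus shared by several classes. In mammary epithelium ITGA6 with ITGB4 anchors cells to the basement membrane through hemidesmosomes, and ITGA11 is best known from fibroblasts and other mesenchymal cells.

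Values are read counts relative to library size (CPM, per 1000000 reads), as scaled by the authors. The libraries held an estimated 9721649 to 12482542 reads, and 3 reads corresponded to 0.212 to 0.267 CPM. A gene was called higher or lower at an adjusted p under 0.05 in limma on log2(CPM + 1), with Benjamini-Hochberg adjustment over all 21059 genes, and changes are on that scale, high minus low glucose. The response to glucose was broad: 46.8% of all genes passed, 22.0% higher and 24.8% lower, and among genes of at least 1 CPM the groups did not overlap in 60.0%. Each library's deviation from the mean of the other libraries of its group was set against transcript length. The deviations of high glucose replicate 1 fell with length (Spearman's rho -0.649 across 11255 genes, which are not independent replicates). Those of high glucose replicates 2 to 4 rose (0.248, 0.337 and 0.465), and those of the low glucose libraries had values from -0.133 to 0.0563. High glucose replicate 1 is in the reference of replicates 2 to 4, so their rises are not independent of its fall. Changes were therefore also computed without high glucose replicate 1 and with the trend of each library on transcript length removed. With the length trend removed, 12 members were higher and 15 lower, and ITGA11 (-1.20), VCL (-0.45) and TLN1 (-0.34) still passed. As in any bulk sample, fewer cells of a type and less RNA per cell cannot be told apart.

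Of the 36 genes, 9 were higher in high glucose, 15 were lower and 12 did not pass, so 66.7% were called against 46.8% of all genes. The members were mostly well expressed, and among the 29 of at least 5 CPM 75.9% were called against 66.9% of all genes at that level. Without high glucose replicate 1, 9 were again higher and 15 lower, and with scaling by the median of ratios 13 were higher and 13 lower. Groups did not overlap in 23 of the 32 members of at least 1 CPM (71.9%). The median absolute change was 0.53 for called members and 0.52 for all called genes. Of the integrin subunits 10 of 20 were called (4 higher, 6 lower), or 50%, near the 46.8% of all genes. Of the adaptors 14 of 16 were called (5 higher, 9 lower), a difference between counts that was not tested. The subunits included genes near 0, and 16 of them were at 1 CPM or more, as were all 16 adaptors. At that level groups did not overlap in 9 of 16 subunits and 14 of 16 adaptors, against 60.0% of all genes. On the log2(CPM + 1) scale the largest falls were those of ITGB4 (-1.61) and ITGA11 (-1.20), and the largest rises those of ITGB2 (1.17) and ITGB7 (1.07). The added 1 damps changes of genes near or below 1 CPM. By ratio of means TNS1 (0.408) fell below ITGA11 (0.431), and ITGB7 (9.47, from 7 reads in all in low glucose) rose above ITGB2 (2.52).

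**Figure D1:**
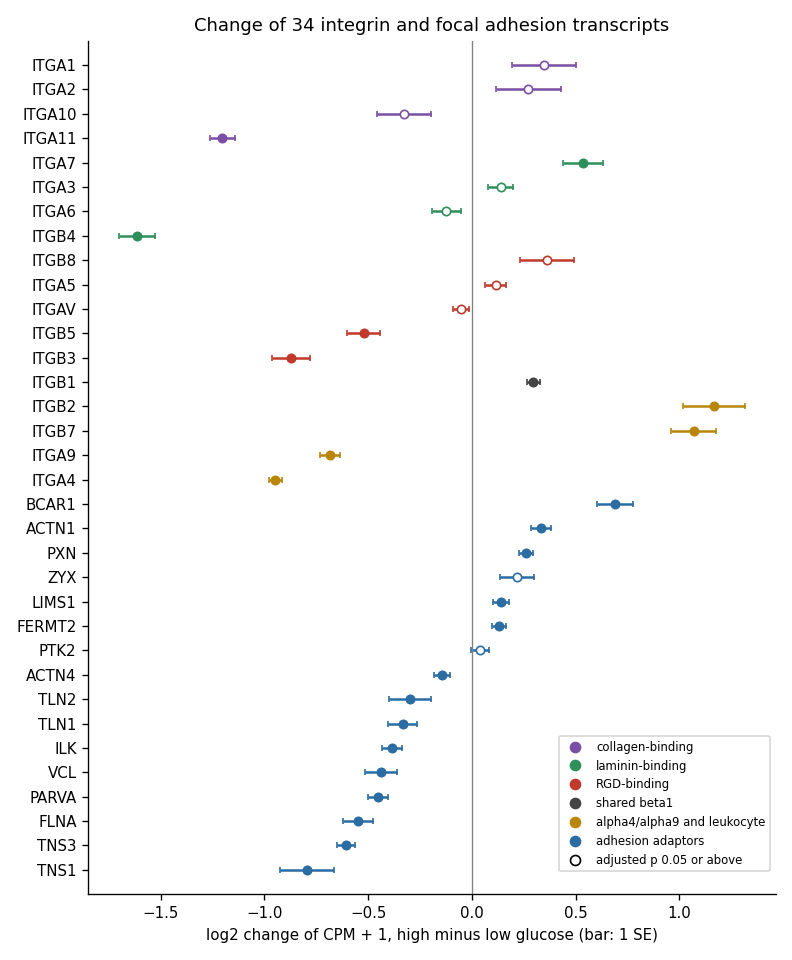
Change of 34 members in high against low glucose on the log2(CPM + 1) scale (x axis), with 1 standard error as a bar and 1 row per gene, coloured by class. Filled points passed the threshold, open points did not, and ITGA8 and ITGB6, with no more than 1 read in any library, are left out. ITGB4 lies farthest to the left at -1.61 and ITGB2 farthest to the right at 1.17, and the adaptors lie between -0.79 and 0.69.

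Among the collagen-binding subunits, 1 of 4 was lower, none was higher and 3 did not pass, so 25% were called against 46.8% of all genes. The 1 that fell was the most abundant of the 4 per kilobase in both groups. ITGA11 (integrin alpha11, chr15:68296532-68432163 in RefSeq on GRCh38.p14) was at 119, 120.2, 123 and 123 CPM in low glucose replicates 1 to 4 and at 45.9, 56.1, 55 and 52 CPM in high glucose replicates 1 to 4. The lowest low glucose library lay above the highest high glucose library by more than the range of either group. The ratio of means was 0.431, the log2 change -1.20 with a standard error of 0.06 (adjusted p = 8.5e-06), and without high glucose replicate 1 the change was -1.14. ITGA1, a collagen IV receptor, was at 4.07 ± 0.769 CPM in low and 5.46 ± 1.03 in high glucose, with overlapping groups (0.35, adjusted p = 0.11), and it passed with a filter at 1 CPM (adjusted p = 0.0477), after quantile normalization (0.51, adjusted p = 0.0308) and with the length trend removed (0.36, adjusted p = 0.0276). ITGA10, known from cartilage, was at 1.0, 1.33, 1.27 and 1.82 CPM in low and 0.635, 0.717, 0.99 and 1.16 in high glucose, between 9 and 25 reads a library (-0.33, adjusted p = 0.0784, and -0.40 with 0.0485 without low glucose replicate 1). ITGA2, the alpha2 chain of epithelial and platelet collagen receptors, was at 3 to 13 reads a library, 23 reads in all in low and 39 in high glucose. The ratio of its reads was 1.71 with a 95% interval of 0.994 to 2.99 that covers counting error only. The median change of the 4 genes was -0.03, against -0.01 over all genes tested, and it was 0.05 after quantile normalization.

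Because ITGA11 was the integrin alpha subunit with the largest change, the 250 bases before its start site are shown (RefSeq, GRCh38.p14, chr15:68432164-68432413, minus strand, 5′ to 3′), with a match to the E-box CACCTG, the letters bound by SNAI and ZEB factors, in capitals.
ITGA11: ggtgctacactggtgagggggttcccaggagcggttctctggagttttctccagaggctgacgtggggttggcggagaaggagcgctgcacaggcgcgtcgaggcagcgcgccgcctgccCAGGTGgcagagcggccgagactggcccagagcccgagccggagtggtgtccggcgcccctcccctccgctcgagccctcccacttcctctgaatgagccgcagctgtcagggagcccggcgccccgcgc
The match lies 130 bases before the start and reads CAGGTG on the gene's strand. Of all 27305 genes with such a window, 17.5% hold this E-box on either strand. A window was found for 28 of the 36 members, and none was in the table used for ITGA3, ITGA7, ITGA9, ITGB2, ITGB3, ITGB4, PARVA and PTK2. The windows of ITGA4, ITGB8, LIMS1 and TNS1 reach into the gene's RefSeq span and hold none of the motifs counted here. The E-box was present in 1 of 11 windows of members that fell, 2 of 7 of those that rose and 2 of 10 of the rest. The AP-1 site TGANTCA was in 1, 1 and 0 of these windows (6.57% of all genes), the TEAD site GGAATG in 1, 1 and 2 (11.9% of all genes), and the CArG box, searched by name as the serum response factor site, in 1, 0 and 1 (1.15% of all genes). The windows of the members had a median GC content of 71.2%, against 57.6% for all genes.

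The laminin-binding subunits moved in both directions, with ITGB4 lower, ITGA7 higher and ITGA3 and ITGA6 not past the threshold. The share called was 50%, near the 46.8% of all genes. ITGB4 (integrin beta4, the hemidesmosome subunit with a long cytoplasmic tail, chr17:75721459-75757818) was at 15.1, 17.2, 16.8 and 17.4 CPM in low and 5.22, 5.26, 4.54 and 4.09 CPM in high glucose. Every high glucose library was below every low glucose library, at a ratio of means of 0.287 (-1.61 with a standard error of 0.09, adjusted p = 9.92e-06). ITGA6, the only alpha subunit that pairs with ITGB4, was at 37.2, 37.4, 40.3 and 36.2 CPM in low and 30.6, 34, 35.6 and 38.6 CPM in high glucose. These groups overlapped (-0.12, adjusted p = 0.204), and the change was -0.07 without high glucose replicate 1 and -0.16 with an adjusted p of 0.0406 with the GC trend removed. ITGA3, which with ITGB1 forms a main laminin receptor of epithelial cells, was at 130.0 ± 8.2 CPM in low and 143 ± 8.89 in high glucose (0.14, adjusted p = 0.103). It passed without high glucose replicate 4 (0.18, adjusted p = 0.0457), with the median of ratios (0.18, adjusted p = 0.039), with the length trend removed (0.13, adjusted p = 0.0434) and with the GC trend removed (0.30, adjusted p = 0.000291), whereas after quantile normalization the change was 0.02. ITGA7, the laminin receptor of muscle, was at 5.0, 5.47, 4.67 and 5.1 CPM in low and 7.76, 6.93, 9.32 and 7.29 CPM in high glucose. It rose without overlap (0.54 with a standard error of 0.09, adjusted p = 0.0029), but from a level per kilobase far below that of ITGA3. The class had a median change of 0.01, and of -0.06 after quantile normalization.

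Of the 7 RGD-binding subunits, the beta chains ITGB3 and ITGB5 were lower, none was higher and 5 did not pass. The share called was 28.6%, against 46.8% of all genes. ITGAV (alphaV), the partner shared by ITGB3, ITGB5, ITGB6 and ITGB8, was at 325, 315, 328 and 324 CPM in low and 291, 308, 316 and 331 CPM in high glucose. The groups overlapped (-0.05, adjusted p = 0.326), and the change was -0.02 without high glucose replicate 1 and -0.08 without high glucose replicate 4. With the GC trend removed ITGAV passed (-0.13, adjusted p = 0.0077). ITGB5, which with ITGAV binds vitronectin, was at 103, 112, 106 and 105 CPM in low and 81.8, 80.4, 69.9 and 65.1 CPM in high glucose, and it fell without overlap (-0.52 with a standard error of 0.08, adjusted p = 0.00129). ITGB3 was at 12.5, 14.9, 14.5 and 12.7 CPM in low and 7.34, 6.33, 8.0 and 6.47 CPM in high glucose. It fell to a ratio of means of 0.514 (-0.87, adjusted p = 0.000222), and since 43.3% of the 31-base words of its transcript also occur in other annotated genes, mainly in an annotated gene that overlaps it on the same strand, reads of these genes may be shared. ITGA5, the fibronectin receptor chain, was at 42.6 ± 2.18 CPM in low and 46.3 ± 2.55 in high glucose (0.11, adjusted p = 0.108, and 0.15 with 0.0408 without high glucose replicate 3), and it also passed with the median of ratios (0.16, adjusted p = 0.0492) and with the GC trend removed (0.27, adjusted p = 0.00283). ITGB8, an activator of latent TGF-beta with ITGAV, was at 7.17, 6.46, 8.58 and 9.83 CPM in low and 9.46, 10.4, 10.2 and 11.9 CPM in high glucose. Its groups overlapped at 1 low glucose library, replicate 4 (0.36, adjusted p = 0.0562), and without that library the change was 0.46 with an adjusted p of 0.0204. It also passed with filters at 1 and 5 CPM, with the median of ratios, with equal totals, after quantile normalization and with the length or the GC trend removed (adjusted p of 0.00978 to 0.0475, changes of 0.29 to 0.48). ITGA8 had at most 1 read in any library and ITGB6 none in any, so a change of either was not detectable at this depth, where 0 reads allow a level of up to 0.212 to 0.267 CPM. The class had a median change of -0.03.

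ITGB1, the beta subunit common to the collagen, laminin and fibronectin receptors (chr10:32900318-32958230), was among the 9 members that rose. It was at 323, 316, 311 and 307 CPM in low and 383, 378, 379 and 406 CPM in high glucose. The lowest high glucose library lay above the highest low glucose library, at a ratio of means of 1.23 (0.30 with a standard error of 0.03, adjusted p = 0.000199). Of the 31-base words of its transcript, 16.1% also occur in other genes, chiefly its pseudogene ITGB1P1.

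**Figure D2:**
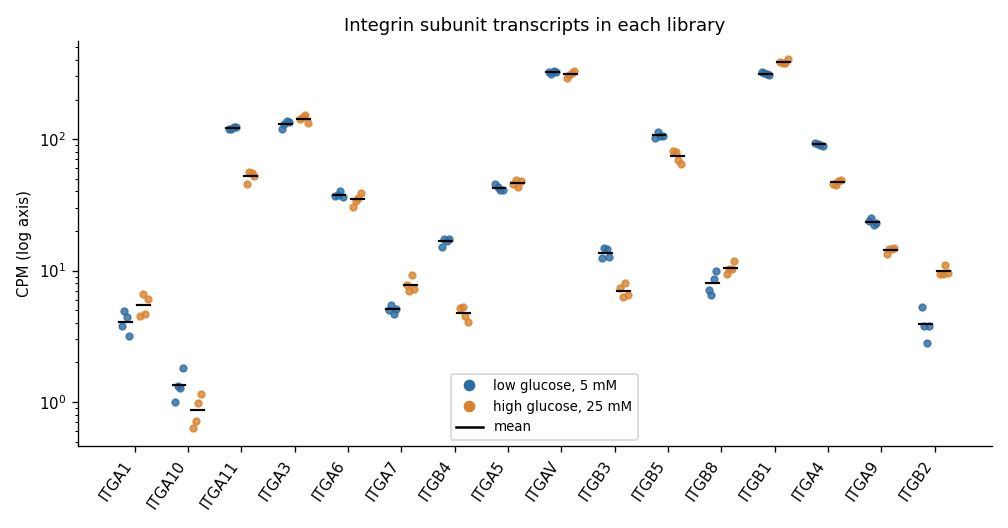
CPM of the 16 integrin subunits with a mean of at least 1 CPM (log axis), with 1 point per library, low glucose in blue and high glucose in orange, and the group mean as a black line. ITGA11, ITGB4, ITGB3, ITGA4 and ITGA9 show 2 separate clusters of points with high glucose below, ITGB1, ITGA7 and ITGB2 with high glucose above, and ITGAV overlaps between 291 and 331 CPM.

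The remaining subunits, ITGA4 and ITGA9, which bind fibronectin variants, VCAM1 and tenascin without RGD, and the leukocyte chains ITGB2 and ITGB7, all passed, the alpha chains lower and the beta chains higher. Thus 4 of 4 were called, against 46.8% of all genes. ITGA4 (chr2:181457205-181538940) was at 93.8, 92.3, 89.9 and 89 CPM in low and 45.7, 44.9, 48.2 and 48.7 CPM in high glucose, a ratio of means of 0.514 (-0.95 with a standard error of 0.03, adjusted p = 2e-06). ITGA9 was at 23.9, 25.2, 22.3 and 23 CPM in low and 13.3, 14.6, 14.5 and 14.8 CPM in high glucose (-0.68, adjusted p = 3.7e-05). Neither gene had an overlap between the groups. ITGB2, the common beta chain of the leukocyte integrins, was at 5.25, 3.79, 2.79 and 3.79 CPM in low and 9.45, 9.47, 11 and 9.51 CPM in high glucose. It rose without overlap at a ratio of means of 2.52 (1.17, adjusted p = 0.000609). ITGB7, a partner of ITGA4 on lymphocytes, had 0, 4, 3 and 0 reads in low and about 21, 18, 17.4 and 13.5 reads in high glucose. All high glucose libraries were above 3 reads, and the ratio of reads was 10.1 with a 95% interval of 4.64 to 25.9 that covers counting error only (1.07, adjusted p = 0.000189). Of the ITGB7 transcript, 42.3% overlaps exons of ZNF740 on the other strand, and of the ITGA4 transcript 26.4% overlaps those of CERKL. Whether the counting used the strand is not given in the sources used here.

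Leukocyte markers were looked at beside these rises. Of 5 listed leukocyte markers 3 were in the data analysed, and their summed level was 10.7 to 14.3 CPM in low and 13.3 to 18 CPM in high glucose. The pan-leukocyte marker PTPRC was near 0, at 0.0997 ± 0.0758 CPM in low and 0.123 ± 0.0539 in high glucose, and did not pass. CD14 was higher (1.25 ± 0.337 CPM in low and 4.24 ± 1.33 in high glucose), and CD68 was at 11.1 ± 1.72 and 12.1 ± 1.72 CPM. Their part in the rise of ITGB2 and ITGB7 was not tested.

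Levels of different subunits were compared per kilobase of the canonical transcript. ITGAV was the most abundant alpha subunit in both groups, at 45.9 ± 0.809 CPM per kb in low and 44.3 ± 2.34 in high glucose, followed by ITGA3 at 26.6 ± 1.68 and 29.3 ± 1.82. In low glucose the order went on with ITGA4 (13.5 ± 0.321), ITGA11 (11.9 ± 0.202), ITGA5 (10.0 ± 0.514), ITGA6, ITGA9 and ITGA7, each separated from the next in all libraries. In high glucose ITGA5 (10.9 ± 0.599) ranked 3, and ITGA4 (6.91 ± 0.275), ITGA6 (5.97 ± 0.569) and ITGA11 (5.13 ± 0.45) followed, with each overlapping the next. ITGA7 and ITGA9 also overlapped in high glucose, and ITGA1, ITGA10, ITGA2 and ITGA8 stayed below 1 CPM per kb in both groups. Among the beta subunits ITGB1 was at 84.2 ± 1.9 CPM per kb in low and 104 ± 3.56 in high glucose, and ITGB5 ranked 2 at 24 ± 0.936 and 16.7 ± 1.83. ITGB4 ranked 3 in low glucose (2.82 ± 0.18) and 6 in high glucose (0.81 ± 0.0962), where ITGB2 ranked 3 (3.51 ± 0.264).

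Expressed as shares, the summed transcript of the 12 alpha subunits among the members moved away from ITGA11, ITGA4 and ITGA9. Alpha subunits outside the members are not in this sum. The summed level of the 12 alpha subunits was 118 to 121 CPM per kb in low and 102 to 110 in high glucose, while that of the 8 beta subunits was 113 to 118 in low and 125 to 130 in high glucose. Collagen-binding chains made up 10.6% ± 0.115 (SD, n = 4) of the alpha sum in low and 5.51% ± 0.369 in high glucose. ITGA4 and ITGA9 together made up 13.8% ± 0.525 in low and 8.16% ± 0.210 in high glucose, so both of these shares were lower in every high glucose library. Laminin-binding chains made up 28.8% ± 1.2 in low and 34.7% ± 1.54 in high glucose. RGD-binding chains made up 46.9% ± 0.915 in low and 51.6% ± 1.46 in high glucose. These last shares were higher in every high glucose library, as parts of a sum that was lower there. By level, ITGAV was at 45.9 CPM per kb in low and 44.3 in high glucose, and ITGA5 at 10.0 and 10.9. ITGA3 was at 26.6 and 29.3, and none of these genes passed, while the less abundant ITGA7 (1.23 and 1.90) was called higher. ITGA11 alone made up 9.97% in low and 4.79% in high glucose. The other collagen-binding chains were minor, with ITGA1 (0.318% and 0.475%) and ITGA2 (0.0503% and 0.0924%) higher on average and ITGA10 (0.221% and 0.159%) lower. Without division by length the collagen-binding share was 16.3% in low and 8.93% in high glucose, a fall of the same direction. Of the beta sum, ITGB1 made up 72.8% ± 0.836 in low and 81.2% ± 1.58 in high glucose. ITGB5 made up 20.8% ± 0.730 and 13.1% ± 1.52, and ITGB4 2.44% ± 0.179 and 0.637% ± 0.0802. These shares are descriptions and were not tested.

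**Figure D3:**
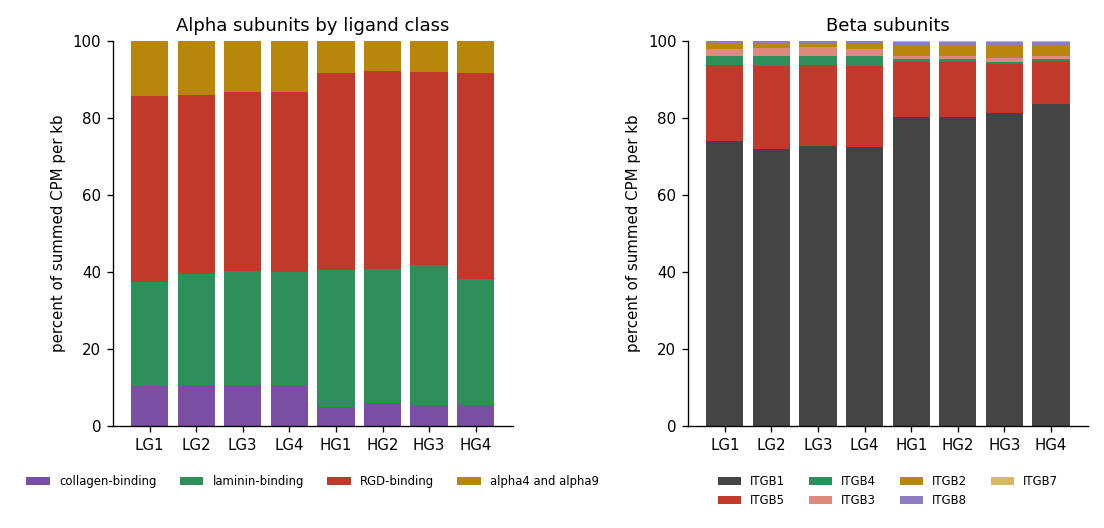
Share of each ligand class in the summed CPM per kb of the 12 alpha subunits (left) and of each gene in the summed CPM per kb of the 8 beta subunits (right, percent on the y axis) in low glucose (LG1 to LG4) and high glucose (HG1 to HG4) libraries. The collagen-binding share lies between 10.4% and 10.7% in LG1 to LG4 and between 5.04% and 5.93% in HG1 to HG4, and ITGB1 between 72.0% and 74.0% and between 80.1% and 83.4%.

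The adaptors were lower more often than higher (9 and 5 of 16, with 2 not past the threshold), at a median change of -0.22, which was -0.17 without high glucose replicate 1, -0.18 with scaling by the median of ratios and -0.09 with the GC trend removed. All 16 were at 1 CPM or more, and 87.5% were called, against 62.1% of all genes at that level. Over all genes tested, 24.8% were lower and 22.0% higher. High glucose replicate 1 was the lowest of the 4 high glucose libraries for 6 of the 9 adaptors that fell. Of the activators of integrins and the vinculin link to actin, TLN1, TLN2 and VCL were lower and FERMT2 higher. TLN1 (talin 1), which switches integrins on by binding beta tails, was at 359.8, 368, 376 and 370.5 CPM in low and 254, 321, 303 and 296 CPM in high glucose (-0.33, adjusted p = 0.00604). High glucose replicate 1 was its lowest library, and without it the change was -0.27 with an adjusted p of 0.00081, while with the GC trend removed it was -0.19. TLN2, the second talin, was at 34.9, 37.1, 35.1 and 35.6 CPM in low and 23.1, 29.1, 33 and 31.1 CPM in high glucose (-0.30, adjusted p = 0.0496). The TLN2 call depended on the setting: the change was -0.19 (adjusted p = 0.0145) without high glucose replicate 1, and the adjusted p was 0.0581 to 0.112 without any one of low glucose replicates 1 to 4 or high glucose replicates 2 and 4. It was also lost with a pseudocount of 0.1 (adjusted p = 0.0526), the median of ratios (0.0908), equal totals (0.0803), no mean-variance trend (0.0525) and the GC trend removed (0.0674). VCL (vinculin), which reinforces talin under force, was at 378, 400.0, 396 and 394 CPM in low and 245, 299, 309 and 308 CPM in high glucose. It fell without overlap (-0.44 with a standard error of 0.08, adjusted p = 0.00263, and -0.36 without high glucose replicate 1). FERMT2 (kindlin 2), the other activator that binds beta tails, was at 103 ± 1.91 CPM in low and 112 ± 5.03 in high glucose, a rise of 0.13 (adjusted p = 0.0152) that no longer passed after quantile normalization (0.01) or with the GC trend removed (0.08).

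The complex of ILK, PINCH (LIMS1) and parvin, which links beta tails to actin, did not move as 1 unit. ILK, its pseudokinase, was at 135, 132, 133 and 131 CPM in low and 112, 100.4, 99.7 and 94.6 CPM in high glucose (-0.39, adjusted p = 0.00056). PARVA (alpha-parvin) was at 140.4, 139.6, 145 and 138 CPM in low and 93.1, 103, 108 and 107 CPM in high glucose (-0.45, adjusted p = 0.000252). Both fell without overlap, and of the ILK transcript 78.5% overlaps exons on the other strand, among them those of TAF10. LIMS1 was at 49.4 ± 1.62 CPM in low and 54.6 ± 2.43 in high glucose, a rise of 0.14 (adjusted p = 0.0198). That call was lost after quantile normalization (0.07), with the GC trend removed (0.08), without low glucose replicate 3 (0.12, adjusted p = 0.0503) and without high glucose replicate 2 (0.13, adjusted p = 0.0535), and 30.3% of its 31-base words occur in the near copies LIMS3 and LIMS4 and related genes.

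Of the kinase and scaffolds of adhesion signaling, BCAR1 and PXN were higher, and PTK2 and ZYX did not pass. BCAR1, a substrate of focal adhesion kinase and Src that senses stretch (chr16:75228181-75268007), was at 26.8, 32.7, 31 and 32.3 CPM in low and 54.3, 50.5, 52.2 and 43.6 CPM in high glucose. It had the largest rise of the adaptors, at a ratio of means of 1.63 (0.69 with a standard error of 0.09, adjusted p = 0.000542). PXN (paxillin), the docking scaffold of early adhesions, was at 65.1, 64, 60.4 and 65.5 CPM in low and 78, 78.7, 76 and 73.5 CPM in high glucose, and it rose without overlap (0.26, adjusted p = 0.000619, and 0.42 with the GC trend removed). PTK2 (focal adhesion kinase) was at 39.4, 35.1, 37.8 and 37.6 CPM in low and 38.6, 37.7, 37.3 and 40.6 CPM in high glucose. Its groups overlapped (0.04, adjusted p = 0.482), with changes of 0.06 without low glucose replicate 1, 0.01 without low glucose replicate 2 and 0.02 without high glucose replicate 4. ZYX (zyxin), which gathers at strained actin fibers, was at 124, 146, 126 and 138 CPM in low and 174, 154, 155 and 138 CPM in high glucose (0.22, adjusted p = 0.0651). It passed without low glucose replicate 2 (0.26, adjusted p = 0.0473) and without high glucose replicate 4 (0.27, adjusted p = 0.0284), with filters at 1 and 5 CPM, with the median of ratios, with equal totals and with the length (0.27) or the GC trend (0.36) removed.

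Both tensins, which carry integrins into the long-lived fibrillar adhesions where fibronectin fibers form, were lower. TNS3 was at 265, 282, 262 and 258 CPM in low and 164, 186, 175 and 175 CPM in high glucose (-0.61 with a standard error of 0.04, adjusted p = 3.8e-05). TNS1 was at 2.25, 1.99, 2.72 and 3.28 CPM in low and 0.918, 1.28, 0.825 and 1.16 CPM in high glucose, 128 reads in low and 52 in high glucose over 4 libraries each. The ratio of TNS1 reads was 0.409 with a 95% counting interval of 0.29 to 0.569 (-0.79, adjusted p = 0.00205). Neither tensin had an overlap between the groups. TNS3 had the largest fall among the adaptors of at least 5 CPM, and the 250 bases before its start site (RefSeq, GRCh38.p14, chr7:47582587-47582836, minus strand, 5′ to 3′) hold none of the 4 motifs searched, so no letters are in capitals.
TNS3: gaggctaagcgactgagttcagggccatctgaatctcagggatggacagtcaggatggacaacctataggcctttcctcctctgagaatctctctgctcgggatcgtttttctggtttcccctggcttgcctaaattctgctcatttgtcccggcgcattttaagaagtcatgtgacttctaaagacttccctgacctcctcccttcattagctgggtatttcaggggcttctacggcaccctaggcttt
The window had a GC content of 50.4% and 6 CG pairs, against 71.2% and 23 in the window shown for ITGA11.

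The crosslinkers of actin were split. ACTN1 (alpha-actinin 1), which bundles actin at adhesions, was at 223, 242, 230.5 and 229.7 CPM in low and 270.4, 305, 310.1 and 282 CPM in high glucose and rose without overlap (0.33, adjusted p = 0.00132). Its paralog ACTN4 was at 447, 478, 471 and 489.9 CPM in low and 421, 435, 444 and 408 CPM in high glucose (-0.14, adjusted p = 0.0196). The ACTN4 call was lost without low glucose replicate 2 (-0.14, adjusted p = 0.0541) and without low glucose replicate 4 (-0.12, adjusted p = 0.0533), it was also lost with the median of ratios (-0.10) and with equal totals (-0.12, adjusted p = 0.0519), and its direction turned with the GC trend removed (0.01). FLNA (filamin A), which binds beta tails and competes with talin, was the most abundant adaptor. It was at 1083, 1188, 1171 and 1209 CPM in low and 731, 867, 848 and 736 CPM in high glucose and fell without overlap (-0.55 with a standard error of 0.07, adjusted p = 0.000685). Per kilobase FLNA stood clear of ACTN4 in low glucose (137 ± 6.55 and 94.5 ± 3.63 CPM per kb), whereas in high glucose the levels of FLNA, ACTN4, ACTN1, ZYX, ILK and VCL each overlapped the next in the order.

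**Figure D4:**
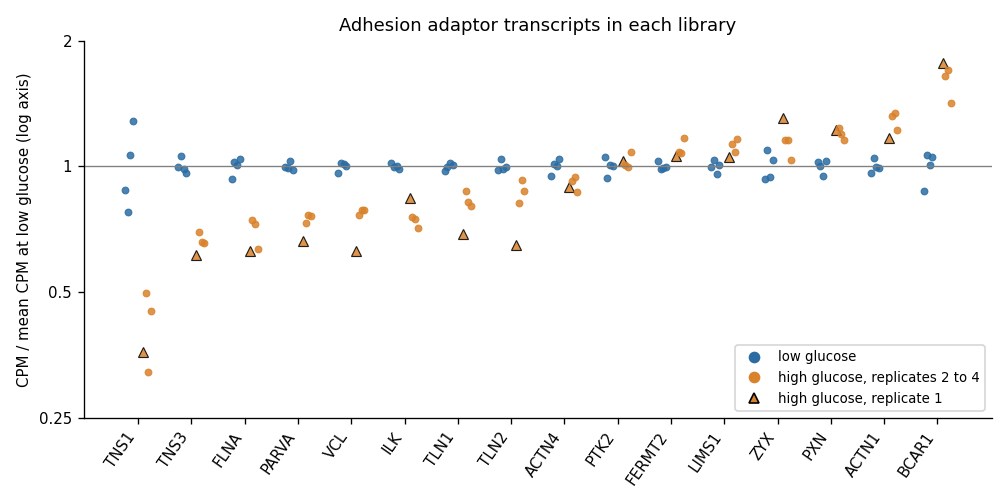
CPM of the 16 adaptors in each library divided by the mean of the low glucose libraries (log axis), with genes ordered by their change, low glucose in blue, high glucose in orange and high glucose replicate 1 as a triangle. TNS1, TNS3, FLNA, PARVA, VCL, ILK, TLN1, TLN2 and ACTN4 lie below 1 in high glucose. The triangle is the lowest high glucose point for 6 of these 9, TLN1, TLN2 and VCL among them. PXN, ACTN1, BCAR1, LIMS1, FERMT2 and ZYX lie above 1 in every high glucose library, though ZYX did not pass the threshold.

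Ratios between related members were tested in 7 pairs with an exact 2-sided permutation test over the 70 assignments of the libraries, whose smallest possible p is 0.0286. With 7 pairs the adjusted p did not go below 0.0667, so no pair passed. That value depends on how many of the pairs separate. The log2 ratio of ACTN1 to ACTN4 was -1.0, -0.98, -1.03 and -1.09 in low and -0.64, -0.51, -0.52 and -0.53 in high glucose. It was higher in all 4 high glucose libraries, by 0.48 (exact p = 0.0286, adjusted p = 0.0667). The log2 ratio of ITGA10 to ITGA11 was also higher in all 4, by 0.88 (exact p = 0.0286, adjusted p = 0.0667), and that of ITGB3 to ITGB5 was lower in all 4, by -0.35 (exact p = 0.0286, adjusted p = 0.0667). These are ratios of CPM + 1, and ITGA10 lay near 1 CPM, where the added 1 damps its fall. Its ratio of means was 0.645, against 0.431 for ITGA11. In ratios of CPM without the added 1 the groups of ITGA10 to ITGA11 overlapped. The ratios of ITGA3 to ITGA6 (0.26) and of ITGA5 to ITGAV (0.17) each had an exact p of 0.0857 and an adjusted p of 0.12. The groups overlapped for TNS1 to TNS3 (-0.19, exact p = 0.257, adjusted p = 0.3) and for TLN1 to TLN2 (-0.04, exact p = 0.629, adjusted p = 0.629), and the latter was 0.01 without high glucose replicate 3. TNS1 also lay near 1 CPM, and its ratio of means was 0.408, against 0.656 for TNS3. In ratios of CPM without the added 1 the groups of TNS1 to TNS3 did not overlap, and this was not tested. ITGA1 and ITGA2 were not tested as a pair because ITGA2 was below 1 CPM.

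**Figure D5:**
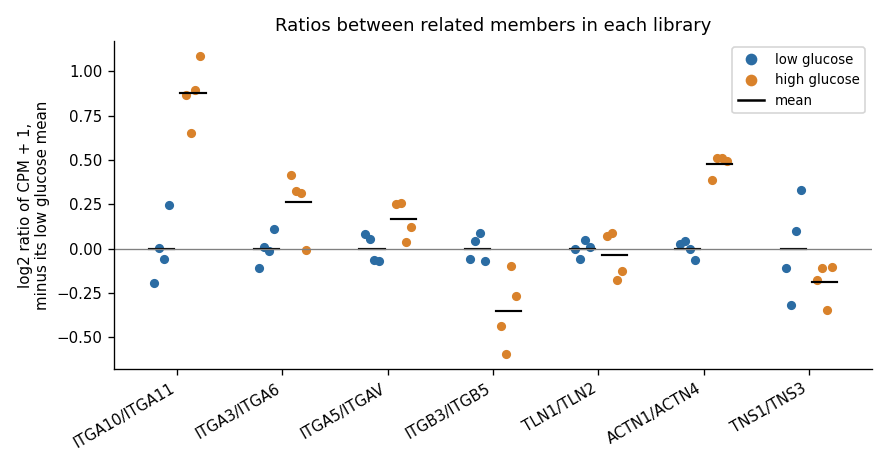
Log2 ratio of CPM + 1 between the members of 7 pairs in each library, minus the mean of the low glucose libraries (y axis), with low glucose in blue, high glucose in orange and group means as black lines. The groups separate for ITGA10 to ITGA11, ITGB3 to ITGB5 and ACTN1 to ACTN4, and overlap for the other 4 pairs.

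Other genes of the adhesion machinery, from a list of 85 found in the table, were called at 57.6% against 46.8% of all genes tested, with 23 higher, 26 lower and 36 not past the threshold. Of these 85 genes 71 were at 1 CPM or more, a level at which 62.1% of all genes passed. Kinases, phosphatases and adaptors of adhesion signaling were higher in 12 and lower in 4 of 28, and structural scaffolds were higher in 6 and lower in 14 of 35. Both lists were called at 57.1%, and the difference in direction between them was not tested. Over all genes tested, 22.0% were higher and 24.8% lower. Activators and inhibitors of integrins were higher in 4 and lower in 6 of 17, and further integrin subunits higher in 1 and lower in 2 of 5. Of the signaling genes, CRKL and CRK, which couple tyrosine-phosphorylated BCAR1 and paxillin to exchange factors, rose from 74.6 ± 3.08 to 139 ± 2.57 CPM (0.89, adjusted p = 2.1e-06) and from 91.4 ± 2.03 to 143 ± 7.55 CPM (0.64, adjusted p = 1.93e-05). YES1, a Src family kinase, rose by 0.84 and CAV1 (caveolin 1) by 0.44. SLC3A2, the CD98 heavy chain that binds beta tails and carries amino acid transporters, rose from 259 ± 1.43 to 799 ± 122 CPM (1.61, adjusted p = 1.9e-05), and the zyxin relative TES by 0.38. On the falling side were EVL, an actin elongation factor (-1.23, from 179.8 ± 4.23 to 76 ± 6.18 CPM), TNS2, another tensin (-1.38), the vinculin binders SORBS2 (-0.98) and SORBS3 (-0.77), the paxillin relative TGFB1I1 (-0.68) and PTPRA, a phosphatase that activates Src (-0.32).

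Of the integrin ligands that the cells themselves transcribe, all 5 collagen genes listed fell (COL1A1, COL1A2, COL3A1, COL4A1 and COL4A2, by changes from -1.73 to -1.03), beside the fall of ITGA11. Of these, COL3A1 went from 17321 ± 289 to 5680.5 ± 165 CPM (-1.61), and its change was -0.51 after quantile normalization, which sets values by rank alone. Laminin chains were higher in 2 and lower in 4 of 9, and of 6 RGD ligands THBS1 was higher (0.56) while FN1 (-0.52), VTN (-0.50) and FBN1 (-1.11) were lower. Of all 20 ligands 3 were higher and 12 lower, so 75% were called against 46.8% of all genes and 62.1% of those of at least 1 CPM.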

How the data were processed

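The authors deposited 1 table of CPM (counts per 1000000 reads) with a column per library, and the study's methods give edgeR and its TMM factors for the scaling. The submitters' processing notes name hg38, while the study's methods describe hg19 for tumors, and the aligner and counter of this table are not given in the sources used here. Low values lay on steps of 0.01 read, so whole reads were not recovered, and read numbers are the values divided by the size of 1 read (0.0706 to 0.0889 CPM). Intervals and floors cover counting error only.

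The 36 members and the other gene lists were chosen with earlier results of these data known. All 36 members are named. Of the other adhesion genes, at most the 6 higher and the 6 lower genes with the smallest adjusted p and a mean of at least 5 CPM are named. From 21077 lines, 18 duplicated pseudoautosomal Y lines were left out. Values were analysed as log2(CPM + 1) with limma 3.58.1 in R 4.3.3 (mean-variance trend, 2-sided, no covariate, no filter), with Benjamini-Hochberg adjustment over 21059 genes and a threshold of 0.05. Of 200 genes changed 2-fold in simulated data for this comparison (21059 genes), 193 were recovered, and 19 of 20859 unchanged genes were called. The simulation drew libraries independently, with the same spread beyond counting error for every gene, and changed only genes of at least 5 CPM. Its rates thus do not carry over to members near the floor or to libraries with a length trend. Ratios were tested by exact permutation in scipy 1.17.1. Gene positions and promoter windows are from RefSeq (GRCh38.p14), and transcript lengths, overlaps and shared words from GENCODE mapped to GRCh37. Each promoter window ends before a listed start site of its gene. For ITGA4, ITGB8, LIMS1 and TNS1 that start lies inside the gene's RefSeq span. Windows that share a 31-base word with an annotated transcript of the same gene (6 of 16 considered) were not printed. Such windows stayed in the motif counts. Alternatives were the pseudocount, filters, scaling, replicate block, length and GC trends, and leaving out each library.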

Additional observations from a re-analysis of the deposited data

Results flagged for a closer look

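In 90 groups of 4 libraries examined, 6 had a library far from the other 3, as measured by its gap to the nearest library over the range of the group, past Dixon's 95% critical value. Chance would give about 1 in 20 groups, or 4.5. Of these, 3 concerned high glucose replicate 1, in which ITGA9 (13.3 CPM against 14.5 to 14.8, ratio of gap to range 0.832), VCL (245 against 299 to 309 CPM, 0.844) and the log2 ratio of ACTN1 to ACTN4 (-0.64 against -0.53 to -0.51, 0.841) were low. ITGB1 was high in high glucose replicate 4 (406 against 378 to 383 CPM, 0.834), and ITGB2 in high glucose replicate 3 (11 against 9.45 to 9.51 CPM, 0.958). The RGD-binding share of the alpha subunits was high in low glucose replicate 1 (48.3% against 46.3% to 46.6%, 0.873). In none of these 6 did the library reach into the range of the other group.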

How the results depend on the processing

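Over 18 alternatives, 20 of the 24 called members kept their direction and stayed past the threshold in every alternative in which they had a value; the exceptions were TLN2, LIMS1, FERMT2 and ACTN4, and ACTN4 turned to 0.011 with the GC trend removed. Counts of called members ranged from 8 to 13 higher and from 13 to 15 lower. No scaling moved the median of genes of at least 1 CPM by more than 0.0388. Class medians rest on few genes and moved. For the collagen-binding class the median was -0.33 at 1 CPM, -1.20 at 5 CPM, 0.0548 after quantile normalization, -0.34 with the length trend and -0.23 with the GC trend removed. For the laminin-binding class it was -0.0635 after quantile normalization and 0.0703 with the GC trend removed. For the RGD-binding class it was -0.0102 with the median of ratios, -0.0633 with the length trend and -0.13 with the GC trend removed. For ITGA4, ITGA9 and the leukocyte chains (0.19) it was 0.31 with a pseudocount of 0.1, -0.68 at 1 and at 5 CPM, 0.26 after quantile normalization, -0.69 with the length trend and -0.66 with the GC trend removed, and 0.16 to 0.25 with 1 library left out. The filters at 1 and 5 CPM and the 2 trend removals have no value for ITGB7. For the adaptors it was -0.14 at 5 CPM, -0.18 with the median of ratios, -0.0884 with the GC trend removed and -0.26 to -0.17 with 1 library left out. Without division by length the collagen-binding share changed by -7.36 and the RGD-binding share by 7.03 percentage points. With the GC trend removed, 5 ratios passed at an adjusted p of 0.04: ITGA10 to ITGA11 (0.93), ITGA3 to ITGA6 (0.45), ITGA5 to ITGAV (0.40), ITGB3 to ITGB5 (-0.43) and ACTN1 to ACTN4 (0.44). The exact p cannot go below 0.0286, so the adjusted p of a separated pair depends on how many other pairs separate. Passing there is thus not a measure of any 1 pair. The ratio of TLN1 to TLN2 turned to 0.0167 there and ranged from -0.0769 to 0.0103 with 1 library left out. The cause of these moves was not tested. Same-numbered libraries did not deviate together (correlations of -0.040 to 0.069, and 1 of 4 high glucose libraries correlated best with its own number), so the numbers pair nothing, and with the replicate block 10 members were higher, 14 lower and 8921 genes were called; TLN2 (adjusted p = 0.0700) and ACTN4 (0.0552) were lost and ITGB8 (0.0367) and ITGA10 (0.0169) gained. ITGA2, ITGA8, ITGB6 and ITGB7 lie near the floor of 3 reads, where depth limits what can be seen.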
